A study of Mus musculus with 6 samples.

Results

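The miR-221/miR-222 cluster is a pair of microRNA (miRNA) hairpins, Mir221 and Mir222, whose 4 mature arms were followed here in exosomes of mouse macrophages. The members were chosen by name, as the 4 rows listed as mmu-miR-221-3p, mmu-miR-221-5p, mmu-miR-222-3p and mmu-miR-222-5p. All 4 were present, with 1 entry each, among the 598 miRNA names of the deposited count table. The exosomes came from the wild type line Raw264.7, a macrophage-like cell line of mouse origin. In the M0-exo group the cells received no cytokine, and in the M2-exo group they received IL-4 and IL-13, each at 20 ng/mL, for 24 h. In both groups the medium was then exchanged for serum-free medium before exosomes were isolated from it by ultracentrifugation. Each group had 3 libraries of small RNA, all carrying the label batch 1, and no label says whether they came from separate cultures. The p-values below thus rest on the spread between these libraries, which may be technical. Those from the main edgeR fit use a spread shared across miRNAs, so a single arm's own spread did not enter them. The same holds for the standard errors and intervals from that fit.

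A miRNA hairpin is cut into a duplex of a 5p and a 3p arm, and an arm loaded into Argonaute guides it to transcripts through its seed, bases 2 to 8. The miR-221/miR-222 pair is transcribed from the X chromosome, and its 3p arms are known for repressing the cell cycle inhibitor Cdkn1b (p27) and the receptor tyrosine kinase Kit. In macrophages the pair has been linked to Toll-like receptor signalling and to the silencing of inflammatory genes after repeated exposure to bacterial endotoxin.

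The mature sequences of the count table are shown because the 4 arms carry 3 seeds, which are in capitals.
miR-221-3p: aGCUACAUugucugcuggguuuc
miR-222-3p: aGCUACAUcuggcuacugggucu
miR-221-5p: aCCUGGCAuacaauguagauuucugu
miR-222-5p: cUCAGUAGccaguguagaucc
The 3p arms, each 23 bases long, were identical over their leading 8 bases, and 11 of the 23 positions were identical when both were read from the 5′ end. They shared the seed GCUACAU, which no other name in the table carried. The 5p arms had different seeds, neither of which occurred in another name, and their longest common run was 7 bases. The leading 18 bases of each arm occurred in transcripts of 1 gene of the GENCODE M21 annotation, which was the hairpin itself, so neither hairpin's arms share such a stretch with the other hairpin or with a longer annotated RNA.

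The hairpins are shown, as RefSeq gives them, because they place the arms, which are in capitals.
Mir221: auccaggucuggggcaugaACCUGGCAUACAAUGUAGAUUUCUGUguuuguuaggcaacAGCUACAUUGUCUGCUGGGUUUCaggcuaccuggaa
Mir222: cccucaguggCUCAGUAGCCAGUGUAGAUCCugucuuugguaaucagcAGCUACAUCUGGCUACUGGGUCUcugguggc
On GRCm38.p6, Mir221 lies at chrX:19146294-19146388 and Mir222 at chrX:19146893-19146971, both on the minus strand, with 504 bases between them. In the GENCODE M21 annotation no other gene overlaps this stretch. The nearest on the same strand is the noncoding gene Gm14636, at chrX:19156981-19167241, whose 3′ end lies 10010 bases from Mir222. The labels name mm39 as the build of the study, so these positions are those of the older annotation and were not converted. mmu-miR-222-5p was placed by matching its sequence to the Mir222 hairpin, at chrX:19146941-19146961, and mmu-miR-221-3p lies at chrX:19146307-19146329.

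The libraries held between 860204 and 1453348 counts over the 598 names, and the let-7 family with miR-98 took between 74.9% and 77.9% of them. All 5 miRNAs listed as macrophage or myeloid markers were present, and they summed to between 1270 and 1772 CPM (counts per 1000000) across the M0-exo libraries and between 1235 and 1497 CPM across those of M2-exo. No library was taken as a repeated deposit, since the chi-square statistic between replicates was at least 7.28 per degree of freedom. The counts of the cluster summed to 2507, 2046 and 1699 for M0-exo replicates 1, 2 and 3 against 1087, 1037 and 1030 for those of M2-exo.

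Both hairpins were detected in every library, and all 4 arms had a lower mean in M2-exo than in M0-exo. Together the arms made up 0.182% ± 0.0129 of the counts in M0-exo and 0.114% ± 0.0073 in M2-exo (SD, n = 3). The groups did not overlap in this share, which was between 0.172% and 0.197% in M0-exo and between 0.106% and 0.121% in M2-exo. It rests on library totals, a scaling under which the median log2 fold change of all names, M2-exo over M0-exo, was -0.18. After scaling by the trimmed mean of M values (TMM), the 4 arms summed to 1689 ± 121 (M0-exo) against 1231 ± 48.5 CPM (M2-exo). The groups did not overlap in this sum either. Among single names, 9.53% showed such a lack of overlap with M2-exo lower, and 22.8% of those with a mean of at least 50 counts. The Mir222 arms summed to 839 ± 91.8 (M0-exo) against 511 ± 53.1 CPM (M2-exo), and the Mir221 arms to 850 ± 42.9 and 720 ± 45.4 CPM. In M0-exo the hairpins thus stood at nearly the same level, and in M2-exo Mir222 stood below Mir221 in each library.

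**Figure D1:**
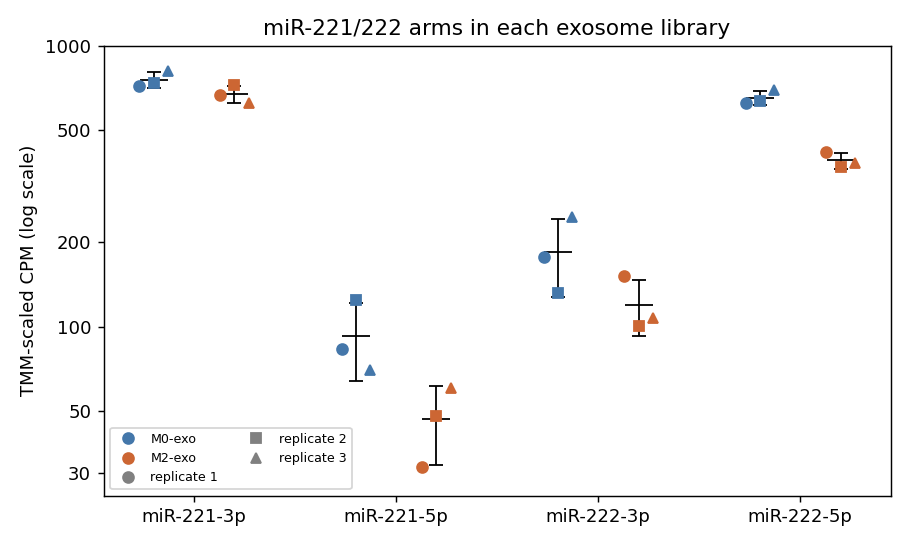
TMM-scaled CPM (log axis) of the 4 arms in each library, M0-exo in blue and M2-exo in orange, with the mean (horizontal bar) and SD (whiskers) of 3 libraries and circles, squares and triangles for replicates 1, 2 and 3. The groups are apart for miR-222-5p and miR-221-5p and overlap for miR-221-3p and miR-222-3p.

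The comparison of M2-exo with M0-exo asks which miRNAs of the exosome cargo differ after polarization with IL-4 and IL-13. It was made with edgeR's quasi-likelihood test over all 598 names, and a miRNA was called where the log2 fold change was 0.5 or more in size and the unadjusted p-value was below 0.05. Under this rule 3 of the 4 arms were called, all of them lower in M2-exo (miR-222-5p, miR-221-5p and miR-222-3p). Of all names, 10% were called in either direction, 6.35% lower and 3.68% higher. The share depends on the level, since 19.3% of the 145 names with a mean of at least 50 counts, which include all 4 arms, were called lower. With a Benjamini-Hochberg adjusted p-value below 0.05 in place of the rule, 2 of the 4 arms were lower (miR-222-5p and miR-221-5p), against 4.68% of all names. With DESeq2 in place of edgeR, only miR-222-5p was below this threshold (adjusted p = 7.8e-06). The adjusted p-values from DESeq2 were 0.0993 for miR-221-5p and 0.188 for miR-222-3p. The 4 arms are not 4 independent members, because each hairpin contributes a pair of them.

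miR-222-5p, the arm opposite the better known miR-222-3p, fell most clearly. Replicates 1, 2 and 3 of M0-exo gave 978, 799 and 648 counts, and those of M2-exo gave 359, 309 and 335. Scaled by TMM these were 626, 638 and 697 CPM for M0-exo against 420, 370 and 383 CPM for M2-exo. Every M2-exo library stood below every M0-exo library, and the gap between the groups was wider than the range within either. Such a lack of overlap, with M2-exo lower, was found for 9.53% of all names and for 22.8% of those with a mean of at least 50 counts. In edgeR's fit the log2 fold change of -0.74 had a standard error of 0.15 and an adjusted p = 2.3e-05, so the level fell by 40.1%. By count it ranked 60, 62 and 60 of 598 names for M0-exo against 72, 74 and 72 for M2-exo.

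miR-221-5p, the less abundant arm of Mir221, was the lowest of the 4, with 130, 156 and 65 counts for M0-exo against 27, 40 and 53 for M2-exo. These were 83.2, 125 and 69.9 CPM against 31.6, 47.9 and 60.6 CPM. The groups did not overlap, but the highest M2-exo library (60.6 CPM) came close to the lowest M0-exo library (69.9 CPM). In edgeR's fit the log2 fold change of -0.99, with a standard error of 0.33, had an unadjusted p = 0.00313 and an adjusted p = 0.0367. With all 6 libraries it was the largest of the 4 in size, and it had the largest standard error. Without M0-exo replicate 2, the library with the most counts of this arm, it was -0.71 and no longer called (unadjusted p-value of 0.052 from edgeR), and was then smaller in size than that of miR-222-3p (-0.82) and miR-222-5p (-0.76). Without M2-exo replicate 1 it was -0.78, again smaller than those of miR-222-3p (-0.84) and miR-222-5p (-0.80).

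For miR-222-3p the M0-exo libraries gave 277, 165 and 229 counts and those of M2-exo 129, 84 and 94. As TMM-scaled CPM these were 177, 132 and 246 against 151, 101 and 107. M2-exo replicate 1 lay above M0-exo replicate 2, so the groups overlapped. Its log2 fold change of -0.62, with a standard error of 0.23, was past the rule (unadjusted p = 0.00588 in edgeR) and short of the adjusted threshold (adjusted p = 0.0596). Without M0-exo replicate 3, the highest library, it was -0.37 and not called (unadjusted p-value of 0.156 from edgeR).

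miR-221-3p, the arm usually taken as the guide of Mir221, was the most abundant of the cluster and differed least. Its counts were 1122, 926 and 757 for M0-exo against 572, 604 and 548 for M2-exo, or 718, 739 and 814 CPM against 670, 724 and 627 CPM. M2-exo replicate 2 stood above M0-exo replicate 1. The log2 fold change of -0.17, with a standard error of 0.14 and a 95% interval from -0.44 to 0.10, was not called (unadjusted p = 0.215 and adjusted p = 0.516 in edgeR). The log2 fold changes of the other 3 arms lie outside that interval. However, the 95% intervals of miR-222-3p (-1.07 to -0.18) and miR-221-5p (-1.64 to -0.33) overlap it. Its rank was between 53 and 57 in the M0-exo libraries and between 55 and 61 in the M2-exo libraries.

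**Figure D2:**
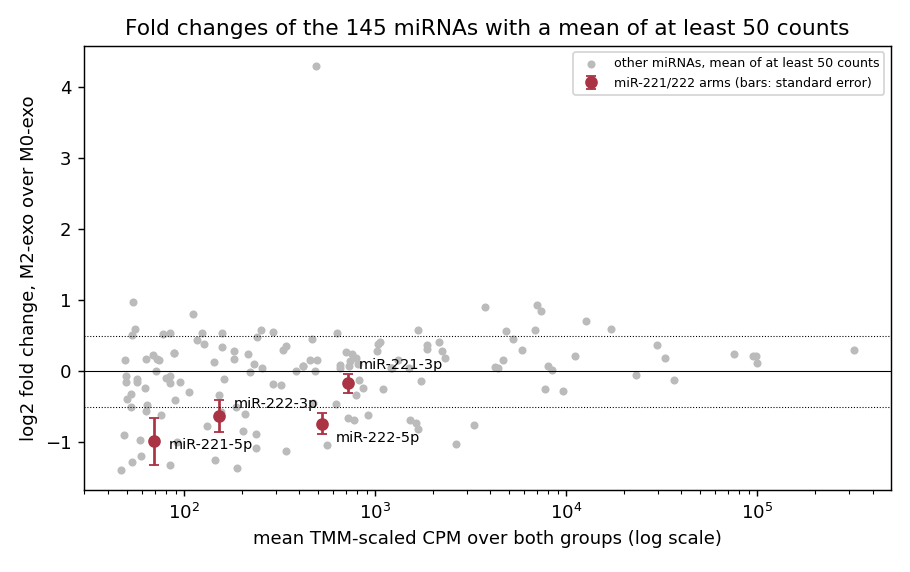
Log2 fold change of M2-exo over M0-exo against the mean TMM-scaled CPM (log axis) for the 145 names with a mean of at least 50 counts, with the 4 arms in red and their standard errors as bars. Dotted lines mark a log2 fold change of 0.5 in either direction, and 3 arms lie below the lower line while miR-221-3p lies at -0.17.

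The sizes of these differences depend on the scaling. With library totals alone the median log2 fold change of all names moved from 0.03 to -0.18, and the arms moved with it, to -0.96 (miR-222-5p), -1.21 (miR-221-5p), -0.85 (miR-222-3p) and -0.38 (miR-221-3p). Relative to the median of all names, miR-222-5p was at -0.77 with TMM and -0.78 with totals alone, and miR-221-3p was at -0.19 and -0.21. The direction was the same for each arm under the 18 alternatives tried, though with totals alone the unadjusted p-value of miR-221-3p was 0.00637 in edgeR (adjusted p = 0.0752).

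**Figure D3:**
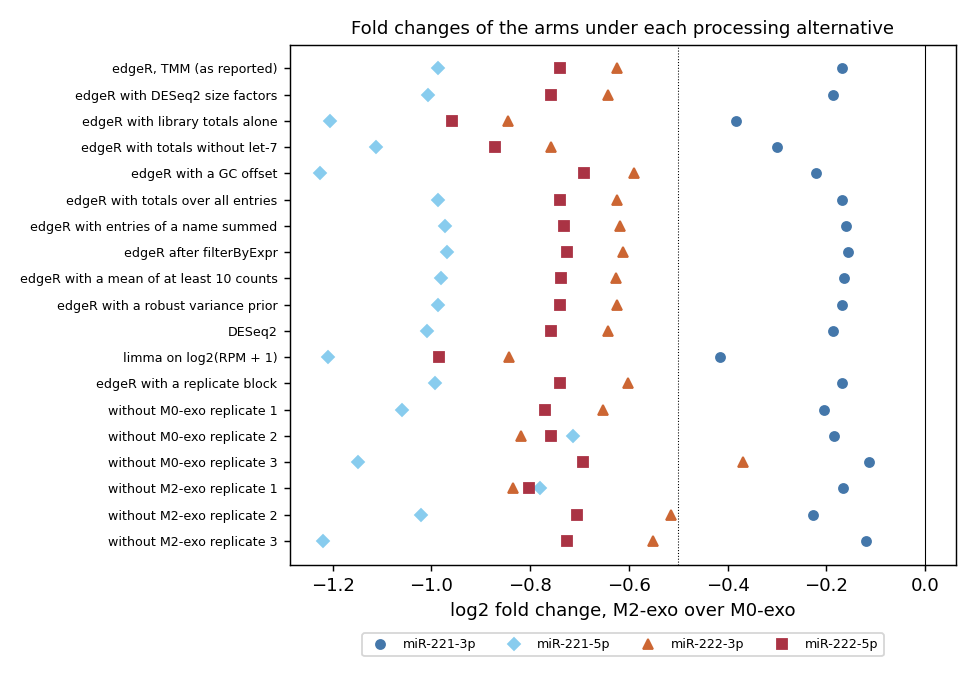
Log2 fold change of M2-exo over M0-exo for each arm (symbols) as reported and under the 18 alternatives, which include the 6 fits that each left out 1 library. All points lie below 0, and the points of miR-221-3p lie between -0.42 and -0.11, to the right of the dotted line at -0.5.

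A ratio of 2 arms within a library does not depend on the scaling between libraries, so the arms were also compared in this way, over 6 pairs. The ratio of miR-221-3p to miR-222-5p was nearly constant in M0-exo, at 1.15, 1.16 and 1.17 in replicates 1, 2 and 3. In M2-exo it was 1.59, 1.95 and 1.64, so every M2-exo library stood above every M0-exo library. On the log2 scale the difference was 0.57 (standard error 0.093), higher in 3 of 3 M2-exo libraries (p = 0.1 by a two-sided exact permutation test, where 20 arrangements allow no smaller value, and 0.4 after adjustment over the 6 pairs). In these libraries miR-222-5p was thus lower relative to the leading arm of the neighbouring hairpin as well as relative to the median of all names. This pair was singled out after the values were seen, and it sets the arm that differed least against the one that fell most clearly. Its ratio therefore restates their fold changes and gives no separate support for them.

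The other pairs were less even. The ratio of miR-221-3p to miR-222-3p, the arms with the same seed, was 4.05, 5.61 and 3.31 for M0-exo against 4.43, 7.19 and 5.83 for M2-exo. The groups overlapped, and the log2 difference was 0.44 (standard error 0.30, two-sided exact permutation test, p = 0.2). It was 0.26 without M0-exo replicate 3 and 0.27 without M2-exo replicate 2. Among the 4 remaining pairs the groups overlapped as well, with two-sided exact permutation p-values between 0.2 and 0.7.

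**Figure D4:**
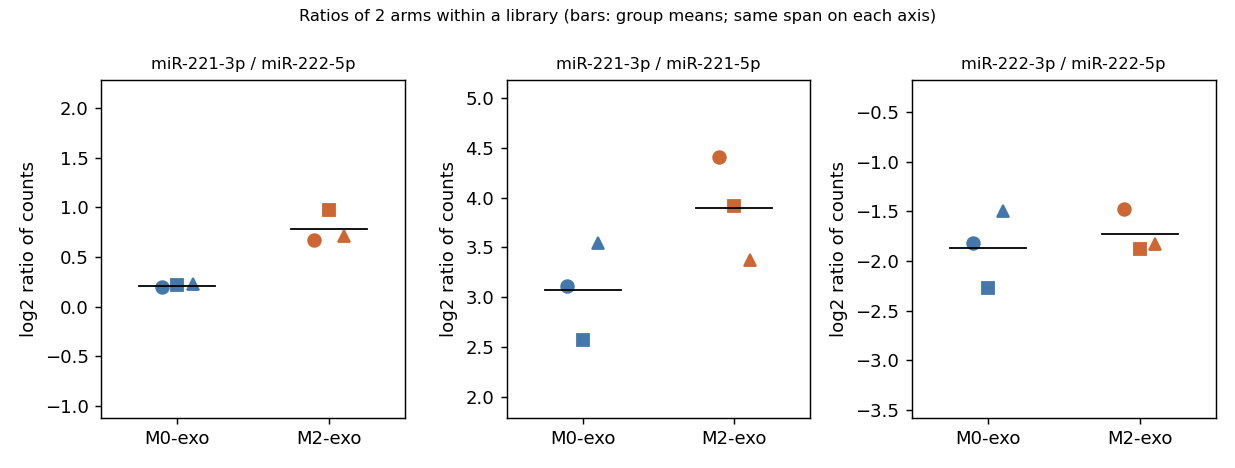
Log2 ratios of counts within each library for 3 pairs of arms, with group means as bars and circles, squares and triangles for replicates 1, 2 and 3, on axes of equal span. The ratio of miR-221-3p to miR-222-5p separates the groups, with M0-exo libraries between 0.20 and 0.22 and M2-exo libraries between 0.67 and 0.97, whereas the 2 ratios within a hairpin overlap.

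The hairpins differed in which arm led. Over all libraries 90.6% of the 5000 Mir221 counts came from the 3p arm, while 22.2% of the 4406 Mir222 counts did, so miR-222-5p outnumbered miR-222-3p in every library. In M0-exo the 3p share of Mir222 was 22.1% (95% Wilson interval 19.9 to 24.4), 17.1% (14.9 to 19.6) and 26.1% (23.3 to 29.1) in replicates 1, 2 and 3. In M2-exo it was 26.4% (22.7 to 30.5), 21.4% (17.6 to 25.7) and 21.9% (18.3 to 26.1). These intervals cover counting error only, and some replicates of M0-exo differed beyond them. Between the groups the share differed by 1.47 percentage points, less than the spread between replicates (two-sided exact permutation test, p = 0.7).

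For Mir221 the 3p share was 89.6%, 85.6% and 92.1% for M0-exo against 95.5%, 93.8% and 91.2% for M2-exo. The mean was 4.39 percentage points higher in M2-exo, but M0-exo replicate 3 lay above M2-exo replicate 3 (two-sided exact permutation test, p = 0.2). Without M0-exo replicate 2 the difference was 2.63 percentage points. For both hairpins the groups overlapped in this share. With 3 libraries in each group the test allows no p-value below 0.1, so it cannot decide whether the arms shifted.

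Against other hairpins, the mixture of arms in Mir222 was on the high side. Of the 86 miRNAs with both arms listed and at least 60 counts in total, 35 had more 3p than 5p counts, and the less abundant arm took a median of 6.77%. That arm's share was higher than in Mir222 for 16 of the 86 and higher than in Mir221 for 33. Among the 44 miRNAs with at least 60 counts for each arm, 12 (27.3%) had lower values for both arms in M2-exo, Mir221 and Mir222 among them. Both arms had a log2 fold change of -0.5 or lower for 2 of the 44, which were Mir222 and miR-671. That number depends on the limit of 60 counts for each arm. Others of the 86, with fewer counts in an arm, also had both arms at -0.5 or lower, such as miR-28a (-0.84 for 5p and -0.89 for 3p). These counts describe the table and were not tested.

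**Figure D5:**
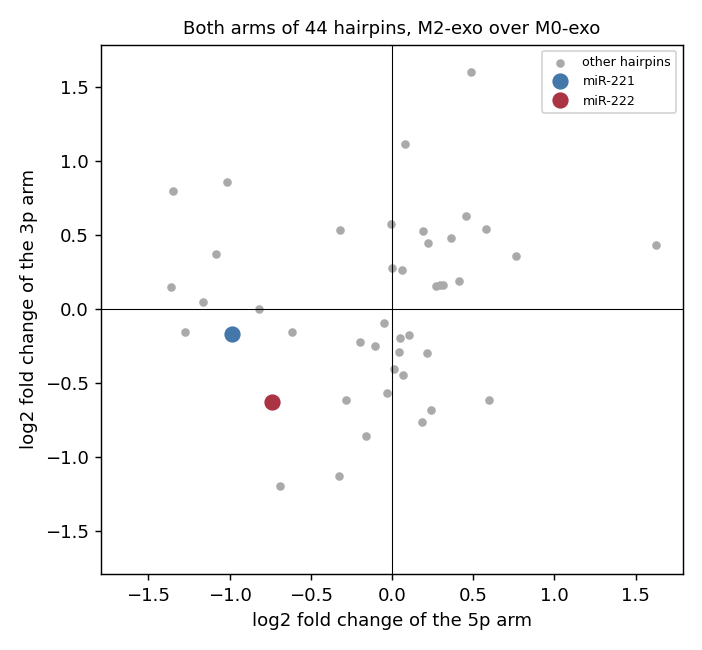
Log2 fold change of M2-exo over M0-exo for the 5p arm (horizontal) and the 3p arm (vertical) of the 44 miRNAs with at least 60 counts for each arm. Mir221 (blue, at -0.99 and -0.17) and Mir222 (red, at -0.74 and -0.62) both lie in the quadrant where both arms were lower.

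Since the 3p arms have 1 seed between them, their sum gives that seed's level among the scaled counts, and not an amount per exosome. It was 896, 871 and 1060 CPM for M0-exo against 821, 825 and 734 CPM for M2-exo. The groups did not overlap in this sum, though they did for each 3p arm alone. Among single names, 9.53% showed such a lack of overlap with M2-exo lower, and 22.8% of those with a mean of at least 50 counts. The means were 942 ± 103 and 793 ± 51.2 CPM (SD, n = 3), and miR-221-3p supplied most of the sum. The log2 difference of -0.25 was -0.16 without M0-exo replicate 3. The seed of miR-222-5p, which stood at 654 ± 37.8 CPM (M0-exo) against 391 ± 25.9 CPM (M2-exo), was the next most abundant of the cluster in both groups.

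For context, the longest annotated 3′UTRs of 4 genes linked with the pair were searched for the complement of each seed, on the transcript strand. The match to the shared 3p seed, ATGTAGC, was found in 9.45% of 21020 genes with a 3′UTR in GENCODE M21. It occurred once in Cdkn1b, once in Cdkn1c, which encodes the related inhibitor p57, and at 2 places in Kit, and these sites are shown with the match in capitals.
Cdkn1b: aaaagcattggATGTAGCattgcgcaatt
Cdkn1c: acctttcgttcATGTAGCaggaaccggag
Kit, first site: atgggagatatATGTAGCaagactagaaa
Kit, other site: taaatattgaaATGTAGCaataatgtctt
On GRCm38 the matches lie at chr6:134924431-134924437 (plus strand), chr7:143458926-143458932 (minus strand), chr5:75654992-75654998 and chr5:75656523-75656529 (both plus strand). In each site the match is followed by an A, opposite base 1 of the miRNA. Smarca4, which encodes the chromatin remodeller BRG1, held no match to the 3p seed in this window. The match to the seed of miR-222-5p, CTACTGA, was found in 8.74% of genes and in none of the 4. The match to the seed of miR-221-5p, TGCCAGG, was found in 13.9% of genes, in Cdkn1b once and in Smarca4 at 2 places. A match describes the sequence and measures no binding.

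The miRNAs whose values over the 6 libraries were most like those of miR-221-3p were miR-191-5p, miR-423-5p and miR-674-5p. Their root mean square differences from it, on centred log2 CPM, were 0.084, 0.092 and 0.10, against a median of 0.28 over 107 names with a mean of at least 100 counts. For miR-222-3p they were miR-505-5p, miR-92a-1-5p and miR-425-3p, at 0.22, 0.28 and 0.32 against a median of 0.51. The likeness is a description over 6 libraries of 2 groups. miR-92a-1-5p was itself called lower, at 883 ± 12.8 CPM (M0-exo) against 559 ± 42.0 CPM (M2-exo), a log2 difference of -0.66 with a standard error of 0.14.

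Of 13 other miRNAs listed as induced by Toll-like receptor or NF-kB signalling, 11 were in the table, 1 was called higher and 1 lower (over all names 3.68% were called higher and 6.35% lower), with a median log2 fold change of 0.24 against 0.03 for all names. The lower one was miR-155-5p, which restrains Socs1 and Inpp5d in activated macrophages. It fell from 755 ± 74.2 to 368 ± 28.1 CPM, which in edgeR's fit was -1.04 on the log2 scale with a standard error of 0.15 and an adjusted p = 1.8e-10. Its levels in both groups were near those of miR-222-5p. The higher one was miR-21a-5p, at 0.55 on the log2 scale with a standard error of 0.18 (adjusted p = 0.0258 in edgeR). Its groups overlapped, at 323, 231 and 153 CPM for M0-exo against 354, 300 and 384 CPM for M2-exo. Of 7 listed as linked with alternative activation, 5 were in the table, 1 was called higher (miR-223-3p, at 1.60 on the log2 scale with a standard error of 0.58, adjusted p = 0.0582 in edgeR) and 0 were called lower, with a median log2 fold change of 0.76. That median is the value of miR-378a-5p, which had 21 to 68 counts a library and was not called. Above it, besides miR-223-3p, lay miR-511-3p, with 0, 0 and 0 counts for M0-exo against 8, 1 and 1 for M2-exo. Below it lay miR-378a-3p (0.36) and let-7c-5p (0.30), which had more counts.

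The miR-221/miR-222 pair is also expressed by endothelial and smooth muscle cells, which are not part of the Raw264.7 line. As a description, markers of other cell types were read in the same libraries, where 3.68% of all names were called higher. Of the 5 macrophage or myeloid markers, 2 were called higher (miR-21a-5p and miR-223-3p) and 1 lower (miR-155-5p). Of 6 endothelial or stromal markers, 4 were present, and they summed to between 119 and 139 CPM in M0-exo and between 159 and 278 CPM in M2-exo. Of these, 2 were called higher (miR-126a-5p and miR-199a-3p, both with adjusted p-values above 0.05 in edgeR) and 0 were called lower, while miR-145a-5p and miR-214-3p were not listed in the table. Both calls rest on few counts. miR-126a-5p had 23, 6 and 3 for M0-exo against 12, 25 and 25 for M2-exo, and miR-199a-3p had 1, 0 and 0 against 7, 7 and 19. Of 5 blood cell or serum markers, 4 were present, and they summed to between 121 and 157 CPM in M0-exo and between 210 and 2623 CPM in M2-exo. Of these, 1 was called higher and 0 were called lower. The higher one was miR-122-5p, a liver miRNA found in serum, at 40.3, 47.1 and 54.8 CPM for M0-exo against 160, 128 and 2497 CPM for M2-exo replicates 1, 2 and 3. It was thus highest in M2-exo replicate 3, and replicates 1 and 2 also stood above every M0-exo library. Without M2-exo replicate 3 the log2 fold changes were -0.72 (miR-222-5p), -1.22 (miR-221-5p), -0.55 (miR-222-3p) and -0.12 (miR-221-3p). The erythroid marker miR-451a had at most 14 counts in any library. The part of these markers in the results for the cluster was not tested further.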

How the data were processed

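Exosomal small RNA from Raw264.7 cells was profiled in 3 M0-exo and 3 M2-exo libraries made with a NEBNext kit. The authors deposited raw counts for each mature miRNA and precursor entry, and RPM values that were recovered to within 0.005 by dividing each count by the total of its library. The submitters' processing notes name mm39. The aligner, the counter and the miRNA release are not given in the sources used here. Samples were grouped by their titles.

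The entry with the highest count was kept for each of the 598 names, and the counts were compared with edgeR 4.0.16 in R 4.3.3 (TMM, estimateDisp, glmQLFit, glmQLFTest, no covariates). As edgeR put the prior degrees of freedom at infinity, a shared quasi-dispersion was used and a miRNA's own spread did not enter its p-value. The fold threshold follows the paper. Standard errors were obtained from the unshrunk coefficient and the F statistic, and intervals assume normality. CPM values given with an SD are TMM-scaled. Ratios and shares within a library were compared with exact permutation tests. Alternatives used DESeq2 1.42.0, limma 3.58.1 on log2(RPM + 1), other scalings, filters, a replicate block and fits without each library. The edgeR fit was tested on simulated counts for 598 names, of which 558 were above 0 and were fitted. Of 200 names changed by a fold of 2 it called 28%, or 78% of the 50 whose mean was 50 counts or more, and it called 4.77% of the 398 unchanged names, those at 0 included. The simulated counts were drawn from the fitted dispersion trend, with no spread particular to a miRNA, which the fit also assumes. The simulation therefore cannot show how the fit performs for miRNAs whose replicates are more uneven. Positions come from RefSeq and GENCODE M21 on GRCm38.

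The members and the lists were chosen with earlier results of these data known. Named miRNAs were the 4 members, those sharing a seed with them, the 3 most alike to each 3p arm, and list members past the threshold. miR-28a, miR-378a-3p, miR-378a-5p, miR-451a, miR-511-3p, miR-671 and let-7c-5p were named after their values were seen. Replicate numbers were not taken as pairs.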

Additional observations from a re-analysis of the deposited data

How the results depend on the processing

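Of the 18 alternatives for each arm, miR-222-5p was called in all, with a log2 fold change from -0.99 to -0.69 and an adjusted p-value of at most 0.00172, and miR-221-3p in none, although its adjusted p-value was 0.0391 with limma. With each library left out in turn, miR-221-3p ran from -0.23 to -0.11, miR-222-5p from -0.80 to -0.69, miR-221-5p ran from -1.22 to -0.71 and miR-222-3p from -0.84 to -0.37, and each of the latter pair lost its call once. The adjusted p-value was below 0.05 in 13 of the 18 alternatives for miR-221-5p and in 6 for miR-222-3p. With library totals alone 73 names were called, 10 higher and 63 lower, against 22 and 38. With the log2 fold threshold raised to 1, 27 names were called, none of them an arm of the cluster. The difference in the 3p share of Mir222 ran from -0.85 (without M0-exo replicate 2) to 3.65 percentage points with a library left out, and was -0.12 without M2-exo replicate 1, while that of Mir221 ran from 2.63 to 5.89. The log2 difference of the summed 3p arms was -0.25, and was -0.46 with library totals alone and -0.38 with totals without let-7, and from -0.30 to -0.16 with a library left out. The log2 difference of the ratio of miR-221-3p to miR-222-3p then ran from 0.26 to 0.64. The log2 difference of the ratio of miR-221-3p to miR-222-5p, examined after seeing the data, ran from 0.48 to 0.63. Same-numbered replicates showed correlations of -0.0533, 0.0045 and -0.0395 between their deviations from the group means over 241 miRNAs. With the replicate block 56 names were called and the log2 fold changes were -0.74 (miR-222-5p), -0.99 (miR-221-5p), -0.60 (miR-222-3p) and -0.17 (miR-221-3p), and no arm changed its call by the rule. The adjusted p-value of miR-221-5p was then 0.0571. Depth limits miR-221-5p most, with 27 to 156 counts a library.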

Other observations

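The arms with the fewest counts, miR-221-5p and miR-222-3p, did not rise and fall together between replicates. In M0-exo the library with the most miR-221-5p (replicate 2, 156 counts) had the least miR-222-3p (165 counts), and in M2-exo the library with the least miR-221-5p (replicate 1, 27 counts) had the most miR-222-3p (129 counts). The ratio of miR-221-5p to miR-222-3p was 0.469, 0.945 and 0.284 for M0-exo against 0.209, 0.476 and 0.564 for M2-exo, so it varied more than 2 times within each group. This pattern was noticed after the values were seen and was not tested.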
